A study of Mus musculus with 12 samples.

Results

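The collagen genes of the mouse are described here across 2 histone marks in blood progenitors with and without Ints11. Members were the protein-coding genes of the RefSeq mouse table whose symbol is Col, a number, the letter a and a number, which gave 44 of 21883 protein-coding genes. The choice used their names and no measured value, but it was made with earlier results of these data known. Chromatin immunoprecipitation with sequencing had been run for H3K27me3 and for H3K4me3 on cKit+ bone marrow cells of C57BL/6 mice, Lin- per the series design. The KO mice (KO_399 and KO_401) were Mx1Cre+ with both Ints11 alleles floxed, and the WT mice (WT_407 and WT_409) were littermates whose Cre status the labels do not give. Cells of both genotypes were sorted 4 days after poly(I:C). Mx1Cre is driven by an interferon-inducible promoter that is also active outside the blood lineage, and poly(I:C), itself an interferon inducer, was part of the treatment of KO and WT mice alike. Ints11 is the endonuclease of the Integrator complex, which cleaves nascent RNAs. The numbers in the labels were read as mice, 2 per genotype, so each mark had 4 libraries, and nothing further says whether they differ in litter or batch.

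Collagens are triple-helical proteins of the extracellular matrix, secreted mainly by fibroblasts, osteoblasts, chondrocytes and the cells that lie on basement membranes. In bone marrow they form the bone and stromal scaffold around the blood cells, and the blood progenitors themselves are not known as a main source. H3K27me3 is laid down by Polycomb repressive complex 2 at silent developmental and tissue-specific genes, often over promoters rich in CG dinucleotides, while H3K4me3 marks active or poised promoters. A promoter that holds both is called bivalent.

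The promoters of 5 members show the range of sequence that goes with the marks described below. Each is the RefSeq window from 250 bases before to 50 bases after the start (assembly GRCm38.p6, which has mm10 coordinates), written 5′ to 3′ on the strand of the gene with every CG dinucleotide in capitals. Col4a1 (chr8:11312777-11313076, minus strand) and Col5a1 (chr2:27886175-27886474, plus strand) had the most CG of the collagen promoters and carried both marks in all 4 libraries. Col15a1 (chr4:47207762-47208061, plus strand) held few CG and still carried H3K27me3 in all 4. Col1a2 (chr6:4505368-4505667, plus strand) had H3K27me3 in the WT libraries and in neither KO library, and Col3a1 (chr1:45311288-45311587, plus strand) had no CG and neither mark.
Col4a1: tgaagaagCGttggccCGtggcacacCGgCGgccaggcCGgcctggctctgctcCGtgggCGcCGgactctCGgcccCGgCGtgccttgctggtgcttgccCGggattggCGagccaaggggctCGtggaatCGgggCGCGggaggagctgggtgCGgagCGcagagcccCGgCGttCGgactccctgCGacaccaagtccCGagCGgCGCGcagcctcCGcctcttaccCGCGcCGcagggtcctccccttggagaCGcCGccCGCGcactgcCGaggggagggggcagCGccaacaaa
Col5a1: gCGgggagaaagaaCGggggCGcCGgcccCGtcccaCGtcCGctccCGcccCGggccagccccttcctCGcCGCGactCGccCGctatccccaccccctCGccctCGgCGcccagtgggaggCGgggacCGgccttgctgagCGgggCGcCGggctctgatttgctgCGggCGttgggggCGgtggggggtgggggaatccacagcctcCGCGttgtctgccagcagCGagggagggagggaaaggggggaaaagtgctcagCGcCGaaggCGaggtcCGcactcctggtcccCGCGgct
Col15a1: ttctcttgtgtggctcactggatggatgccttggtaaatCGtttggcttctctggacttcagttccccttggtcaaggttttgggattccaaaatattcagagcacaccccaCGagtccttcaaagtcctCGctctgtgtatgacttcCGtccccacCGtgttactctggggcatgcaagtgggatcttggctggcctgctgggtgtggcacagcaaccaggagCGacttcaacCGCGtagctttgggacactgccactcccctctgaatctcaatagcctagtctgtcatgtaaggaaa
Col1a2: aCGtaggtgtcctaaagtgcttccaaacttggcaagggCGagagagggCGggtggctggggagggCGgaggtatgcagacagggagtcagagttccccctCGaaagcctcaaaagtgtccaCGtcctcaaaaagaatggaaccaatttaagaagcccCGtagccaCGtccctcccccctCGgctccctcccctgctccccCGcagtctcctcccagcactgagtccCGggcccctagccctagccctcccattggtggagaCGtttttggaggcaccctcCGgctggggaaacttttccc
Col3a1: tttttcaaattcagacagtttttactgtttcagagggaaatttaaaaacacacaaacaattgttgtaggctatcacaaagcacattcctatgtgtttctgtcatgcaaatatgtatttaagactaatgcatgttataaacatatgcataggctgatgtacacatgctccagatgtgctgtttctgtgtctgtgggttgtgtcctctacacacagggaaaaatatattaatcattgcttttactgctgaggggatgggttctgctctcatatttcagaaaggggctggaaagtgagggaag

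The measure throughout is covered bases, the number of bases of a gene's window that lie under listed peaks of 1 library. The window is the union of the stretches within 5 kb of either gene end. A window holds at most 20000 bases, and peaks that run past it are clipped. Every listed peak had a fold over background of 5 or more as the authors give it, so an empty window means no peak above that level. H3K27me3 lists held 6542 and 7653 peaks in KO_399 and KO_401, against 11930 and 9838 in WT_407 and WT_409, and H3K4me3 lists held 25090 to 27676. Read totals are not in the lists. The background at the summits follows the depth used in calling. For H3K27me3 it was 3.3 and 3.67 reads per position in KO_399 and KO_401, against 3.09 and 3.15 in WT_407 and WT_409. Both KO libraries were thus above both WT libraries, and the part of this in the H3K27me3 differences was not tested. For H3K4me3 the background was 1.93 to 2.65, with KO_399 the highest. Stem and progenitor genes carried H3K4me3, with a peak in at least 1 library at 10 of 10 and in all 4 at 8. Lmo2 had one in WT_409 alone, and Erg had none there. Of all genes 66.6% and 61.6% had such peaks. So did 6 and 4 of 6 B lymphoid markers, and 5 and 3 of 6 erythroid markers. For 11 stromal and osteoblast markers the numbers were 10 and 5, and for 6 endothelial markers 5 and 2. These counts alone thus do not identify the cell type. Bases under peaks of a cell population cannot tell fewer cells with the mark from less mark per cell.

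H3K27me3 was listed at more than 2 in 3 of the collagen genes in at least 1 library, and it covered fewer bases in the KO libraries. It averaged 1381.3 and 2014.2 covered bases per collagen gene in KO_399 and KO_401, against 2890.6 and 2558.2 in WT_407 and WT_409. Both KO libraries were below both WT libraries. The group means were 1697.8 ± 447 in KO and 2724.4 ± 235 in WT (SD, n = 2 each), so that KO stood at 62.3% of WT. The difference exceeded the spread between mice, and its two-sided exact permutation p was 0.33 (n = 2 each), the smallest that 6 labelings of 4 libraries allow. With each list reduced to its strongest peaks up to 1 shared covered length, the difference was -126 bases per gene. All protein-coding genes averaged 744 ± 197 in KO and 1150.8 ± 16.5 in WT (SD, n = 2 each), at 64.6% of WT. Collagen genes thus carried 2.29 and 2.28 times the genome mean in KO_399 and KO_401, and 2.49 and 2.25 times in WT_407 and WT_409. Relative to all genes the genotypes overlapped (exact permutation p = 1, n = 2 each).

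**Figure D1:**
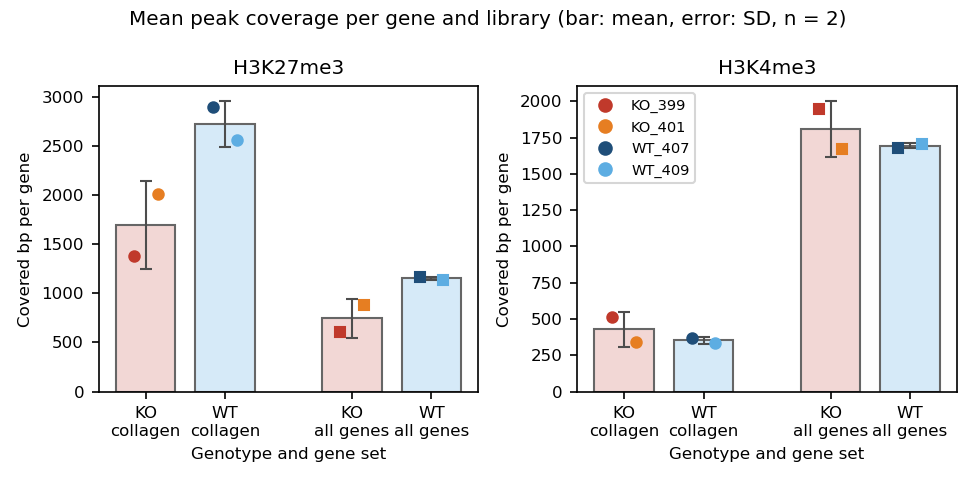
Mean covered bases per gene in each library for H3K27me3 (left panel) and H3K4me3 (right panel), for the 44 collagen genes (circles) and all 21883 protein-coding genes (squares). Bars are means and error bars the SD over 2 mice. H3K27me3 is lower in each KO library than in either WT library for collagen and all genes alike, and collagen genes lie above the mean of all genes for H3K27me3 and below it for H3K4me3.

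Of the 44 genes, 30 (68.2%) had H3K27me3 in at least 1 library and 21 (47.7%) in all 4, where 28.1% and 17.8% of all genes did. The number of collagen genes with a peak was 21 and 25 in KO_399 and KO_401, against 29 in each WT library (exact permutation p = 0.33, n = 2 each). KO thus stood at 79.3% of WT in this count, and at 77.3% in the same count over all genes. With lists of equal covered length the collagen count turned round, with 17.5 genes in KO and 12.5 in WT on average. Covered bases were lower in each KO library than in either WT library at 22 of the 30 genes (73.3%), beside 68.5% of all genes with the mark, so the share of collagen genes was near the background. No collagen gene was higher in both KO libraries (0.0326% of all genes with the mark). The mark was in both WT and neither KO library at 3 of 30, or 10%, against a background of 7.96%. It was in the 2 KO and no WT library at 0 of 30 (0.0163% of all genes with the mark). KO_399 was the lowest of the 4 libraries at 24 of the 30 genes, and WT_407 the highest at 19. KO_401 was the highest at 3, namely Col15a1, Col16a1 and Col19a1.

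**Figure D2:**
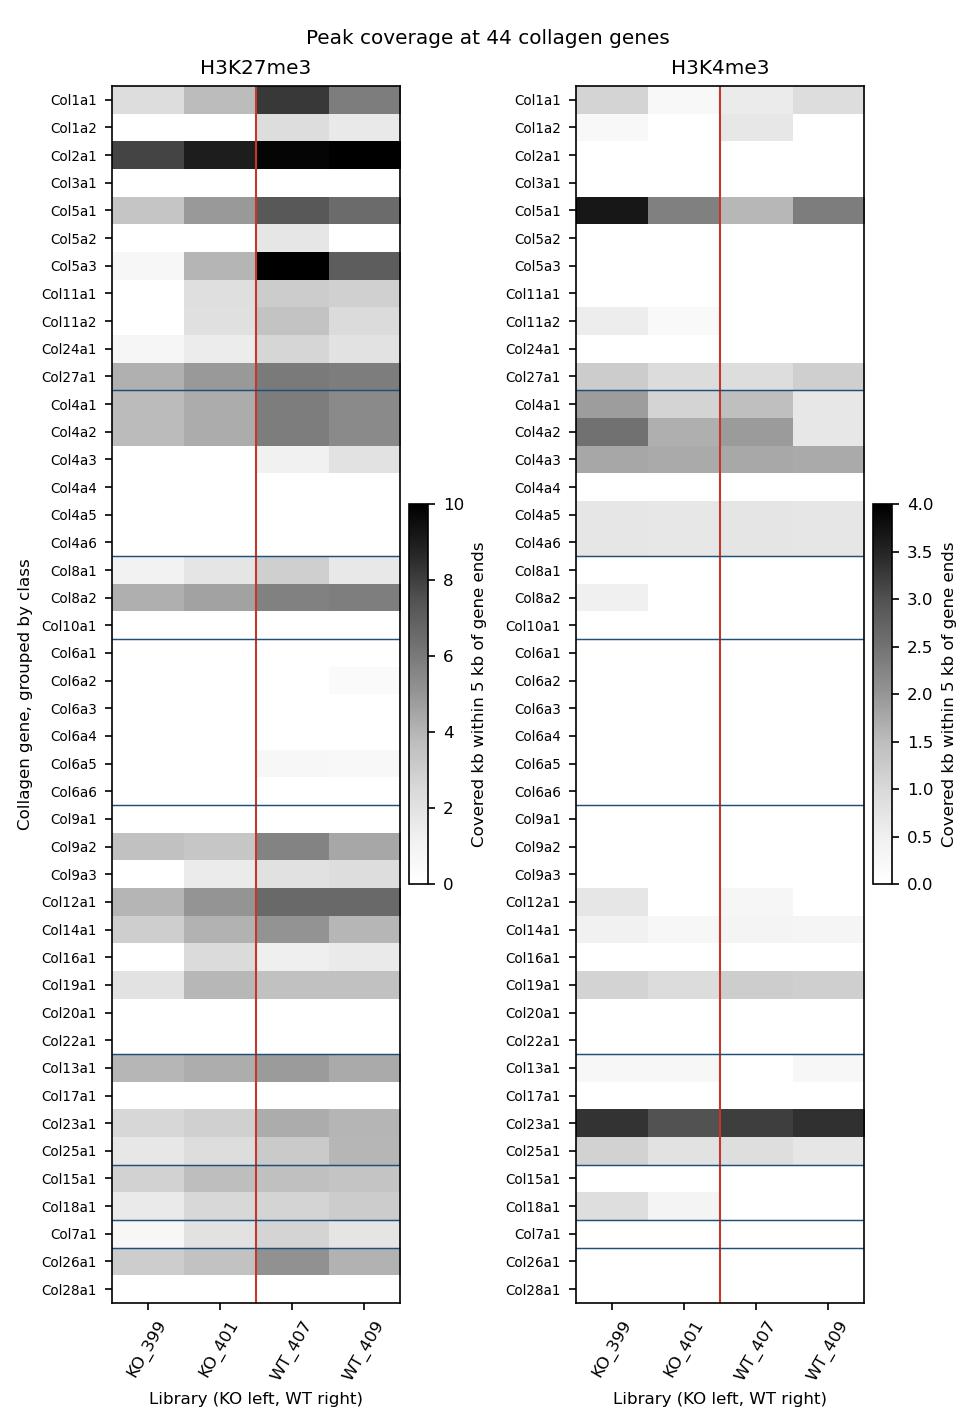
Covered kb within 5 kb of the gene ends for each of the 44 collagen genes (rows, blue lines between classes) in each library (columns, KO left of the red line and WT right of it), with H3K27me3 in the left panel and H3K4me3 in the right panel on separate grey scales. Col2a1 is dark in all 4 H3K27me3 columns, Col5a3 and Col1a1 are dark in WT, and the Col6 genes are nearly blank in both panels.

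The fibrillar collagens, which form the striped fibrils of skin, bone, tendon and cartilage, carried more H3K27me3 per gene in WT than any other class. Of 11 genes, 10 had the mark. Of these, 9 had fewer covered bases in each KO library than in either WT library, beside 68.5% of all genes with the mark. The 11 genes averaged 1735.1 and 2934.9 bases per gene in KO_399 and KO_401, against 4951.8 and 4017.6 in WT_407 and WT_409. KO thus stood at 52.1% of WT, beside 64.6% for all protein-coding genes. Col2a1, the chain of cartilage type II collagen, had the most of any member, with 7859 and 9008 covered bases in KO_399 and KO_401, against 9771 and 9984 in WT_407 and WT_409. A peak across its upper end (chr15:97975602-98004724) was 7269 and 10660 bases wide in KO_399 and KO_401, against 10061 and 12046 in WT_407 and WT_409, and each ran past the inner edge of the window. In proportion its difference was small (85.4% of WT).

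Col5a3, a minor fibrillar chain, had the largest difference of the 44 genes. Its covered bases were 687 and 4011 in KO_399 and KO_401, against 10003 and 7045 in WT_407 and WT_409, or 27.6% of WT. At its start (chr9:20770050-20815117, minus strand) the peak was 687 and 3290 bases wide in the KO libraries and 5623 and 5152 bases wide in the WT libraries. The other end of the gene added 721 bases in KO_401, none in KO_399, and up to 3 peaks in a WT library. Col1a1, the main chain of type I collagen in bone and skin, followed, with 2240 and 3765 bases in KO_399 and KO_401, against 8202 and 5896 in WT_407 and WT_409. Its H3K27me3 stood at the lower end of the gene (chr11:94936224-94953042), as 2 peaks in KO_399, 4 in KO_401, 5 in WT_407 and 3 in WT_409. In the WT libraries the widest of these was 3523 and 3084 bases, and in the KO libraries 1137 and 1775.

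Col1a2 encodes the partner chain of Col1a1 in type I collagen. It had no H3K27me3 in either KO library, against 2295 bases in WT_407 and 1606 in WT_409. The WT peaks lay across the start printed above and before it, with folds of 7.09 and 6.26 at their strongest as the authors give them, not far above the fold of 5 under which no peak is listed. They ranked at the 49.2 and 32 percentile of their lists by q-value. Col3a1, the type III chain that is made together with type I collagen in many tissues, had none in any library. The 2 chains of type I collagen thus differed in how much mark they carried, and both had less in KO.

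Col5a1, the main type V chain, which sets fibril width, had 3382 and 4887 covered bases in KO_399 and KO_401, against 7259 and 6546 in WT_407 and WT_409. The peak sat over the promoter printed above, with its summit within 201 bases of the start in all 4 libraries. Col27a1, a cartilage chain, was closer between genotypes, at 4165 and 4885 bases in KO_399 and KO_401, against 5983 and 5893 in WT_407 and WT_409. Col11a1 and Col11a2, the type XI chains of cartilage fibrils, had none in KO_399. In KO_401 they had 2181 and 2087 bases, against 3069 and 3459 in WT_407 and 2888 and 2372 in WT_409. All 4 of these genes had less in each KO library than in either WT library, as did 68.5% of all genes with the mark. Col24a1, a minor fibrillar chain, had 753 and 1460 bases in KO_399 and KO_401, against 2642 and 1964 in WT_407 and WT_409. Col5a2, the partner chain of Col5a1, had a peak of 1787 bases in WT_407 alone.

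The basement membrane chains come as head-to-head pairs. Col4a1 and Col4a2, which together make the common type IV network under endothelium and epithelium, have ends 84 bases apart on chromosome 8 and share 1 H3K27me3 peak. It covered 3803 and 4273 bases of either window in KO_399 and KO_401, against 5871 and 5419 in WT_407 and WT_409. The shared peak thus counts as 2 genes in every count given here. Col4a3 and Col4a4, chains of the kidney and lung basement membrane, have ends 113 bases apart, and neither had H3K27me3 there. Col4a3 is counted in WT only, with none in KO and 1121 and 1972 bases in WT_407 and WT_409. That peak lay past its upper end, with its summit 1951 and 1875 bases from the start of Mff, a mitochondrial fission factor. Col4a5 and Col4a6, the X-linked pair, had none in any library.

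The short-chain network collagens divided by gene. Col8a2, a chain of the corneal Descemet membrane, had 4197 and 4606 covered bases in KO_399 and KO_401, against 5742 and 5831 in WT_407 and WT_409. Inside its body, outside the window, there was a further domain of 8440 bases in KO_401 and 8459 in WT_407, which was listed as separate peaks of 1968 and 3094 bases in KO_399 and of 3757 and 4608 bases in WT_409. Col8a1 had 1072 and 1854 bases in KO_399 and KO_401, against 2902 and 1664 in WT_407 and WT_409, so its groups overlapped. Col10a1, the hypertrophic cartilage collagen, had none.

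The 6 genes of type VI collagen, which makes beaded microfibrils around cells, carried almost no H3K27me3. Col6a5 had none in KO and 596 and 557 bases in WT_407 and WT_409, over its own start, at folds of 5.87 and 5.73 as the authors give them. Col6a2 had 412 bases in WT_409 alone. Col6a1, Col6a3, Col6a4 and Col6a6 had none within their windows, and no gene of the class had H3K4me3.

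Of the fibril-associated collagens (FACIT), which bind to the surface of fibrils, 6 of 9 had H3K27me3. Of these 6, 3 were lower in each KO library than in either WT library, beside 68.5% of all genes with the mark. Col12a1 of tendon and muscle connective tissue had 4004 and 5050 covered bases in KO_399 and KO_401, against 6618 and 6635 in WT_407 and WT_409. Col14a1, its close relative, had 2973 and 4080 bases in KO_399 and KO_401, against 5102 and 3984 in WT_407 and WT_409, so that KO_401 lay above WT_409. Col9a2, a type IX chain of cartilage, had 3564 and 3332 bases in KO_399 and KO_401, against 5626 and 4425 in WT_407 and WT_409. At its start alone these were 2842 and 3332 in KO_399 and KO_401, against 3540 and 3207 in WT_407 and WT_409, so the groups overlapped there. Its other end had 722 and 0 bases in KO_399 and KO_401, against 2086 and 1218 in WT_407 and WT_409. These 3 genes carried the most in the class. Col9a3, another type IX chain, had none in KO_399 and 1485 bases in KO_401, against 2034 and 2247 in WT_407 and WT_409. Col16a1 had none in KO_399 and 2369 bases in KO_401, against 1308 and 1524 in WT_407 and WT_409. Col19a1 had 2010 and 3935 bases in KO_399 and KO_401, against 3522 and 3553 in WT_407 and WT_409. For these last 2 genes KO_399 was the lowest and KO_401 the highest of the 4 libraries. Col9a1, Col20a1 and Col22a1 had none.

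Among the transmembrane collagens, Col13a1, found at muscle junctions, had 3955 and 4231 covered bases in KO_399 and KO_401, against 4842 and 4361 in WT_407 and WT_409. Col23a1 had 2547 and 2874 bases in KO_399 and KO_401, against 4260 and 4009 in WT_407 and WT_409. Col25a1, a neuronal collagen, had 1699 and 2286 bases in KO_399 and KO_401, against 3136 and 3965 in WT_407 and WT_409. All 3 were lower in each KO library than in either WT library, as were 68.5% of all genes with the mark. Col17a1 of the hemidesmosome had none. The multiplexins stand near basement membranes, and Col18a1 is the source of the fragment endostatin. Col15a1 differed least in proportion of the genes with H3K27me3 in all 4 libraries, at 2799 and 3694 bases in KO_399 and KO_401, against 3603 and 3412 in WT_407 and WT_409 (92.6% of WT). Col18a1 had 1568 and 2530 bases in KO_399 and KO_401, against 2696 and 3080 in WT_407 and WT_409. Col7a1, the anchoring fibril of skin, had 666 and 1981 bases in KO_399 and KO_401, against 2698 and 1828 in WT_407 and WT_409, so its groups overlapped. Col26a1 had 3033 and 3487 bases in KO_399 and KO_401, against 5170 and 4070 in WT_407 and WT_409, and Col28a1 had none.

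Over the 21 genes with H3K27me3 in all 4 libraries, KO ranged from 27.6% to 92.6% of WT with a median of 70.6%. The median over the 3894 such genes of the genome was 70.1%. The chosen genes are those that kept a peak in every library, so these medians leave out the genes where none was listed in KO.

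H3K27me3 of collagen genes lay at the start of the gene and seldom at the other end. Starts and strands were given for 35 of the 44 genes. The 9 others, Col1a1, Col2a1, Col4a3, Col5a2, Col9a3, Col12a1, Col14a1, Col22a1 and Col26a1, were described by their lower and upper ends. Over the 35 genes, peaks covered 39948 and 61028 bases within 5 kb of the start in KO_399 and KO_401, against 80448 and 74662 in WT_407 and WT_409. Near the other end they covered 722 and 721 bases in KO_399 and KO_401, against 6935 and 3111 in WT_407 and WT_409. Over all 44 genes, gene bodies beyond both windows added 6054 and 14826 bases in KO_399 and KO_401, against 18038 and 15855 in WT_407 and WT_409. The start base itself was covered at 15 and 19 of the 35 genes in KO_399 and KO_401, against 21 in each WT library. It was covered in all 4 libraries at 15 genes, in both WT and neither KO library at Col1a2 and Col6a5, and in none at 14. In each library the mark reached somewhat farther into the gene than before it, with 672 and 943 bases per gene after the start in KO_399 and KO_401, against 1274.9 and 1192 in WT_407 and WT_409. Before the start it covered 470 and 800 bases in KO_399 and KO_401, against 1022.4 and 941 in WT_407 and WT_409.

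**Figure D3:**
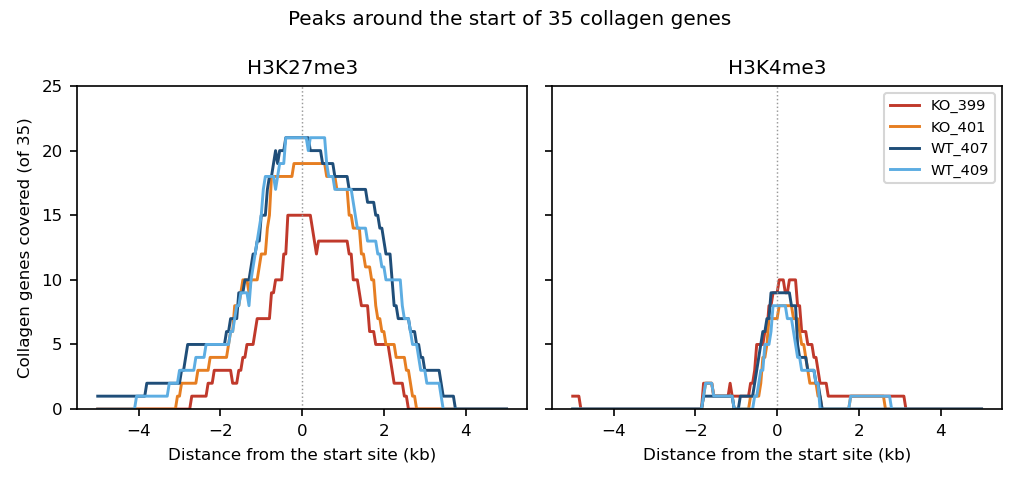
Number of the 35 collagen genes with a given start that are covered by a peak at each distance from it (kb, positive into the gene), for H3K27me3 and H3K4me3, with 1 line per library. H3K27me3 coverage is highest around the start, at 15 genes in KO_399, 19 in KO_401 and 21 in each WT library, while H3K4me3 is narrower and covers at most 10 genes.

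The collagen promoters with H3K27me3 were those richer in CG, a feature that had no part in the choice of members. Of the 35 promoters, 16 belonged to genes with H3K27me3 at the start in all 4 libraries, and these held 6 to 37 CG with a median of 19. The 13 genes with none held 0 to 14 CG with a median of 3. The 6 genes with the mark in 1 to 3 libraries lay between, with a median of 11.5 CG. In the same RefSeq promoters of all genes, the medians were 21 CG for 2554 genes marked in all 4 libraries, 16 for 1502 marked in 1 to 3 and 10 for 13435 with no mark. The promoters differ in base composition as a whole, with a median GC content of 62.5% for collagen genes with the mark in all 4 libraries and of 50% for those with none.

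Of 13 collagen promoters with 16 or more CG, 11 (84.6%) had H3K27me3 in all 4 libraries and 0 had none. Among all genes 21% of 7905 such promoters had it in all 4. Of 10 collagen promoters with 8 to 15 CG, 4 (40%) had it in all 4 libraries, where 19.6% of all genes of this range did. Of 12 with fewer, 1 (8.33%) did, which was Col24a1 with 6 CG, where 4.89% of all genes did. H3K4me3 rose with CG too, but collagen promoters lay below those of all genes in each range. Of all promoters with 16 or more CG, 89.5% had H3K4me3 in all 4 libraries, and of the collagen promoters 53.8% did. With 8 to 15 CG these shares were 67.6% and 10%, and with fewer they were 20.3% and 8.33%. CG was searched as the letters CG, which read the same on both strands. At least 1 was found in 91.4% of the collagen promoters and in 94.8% of the 17491 promoters of all genes. The promoters printed above span this range, with 37 CG in Col4a1, 34 in Col5a1, 13 in Col1a2, 8 in Col15a1 and 0 in Col3a1.

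**Figure D4:**
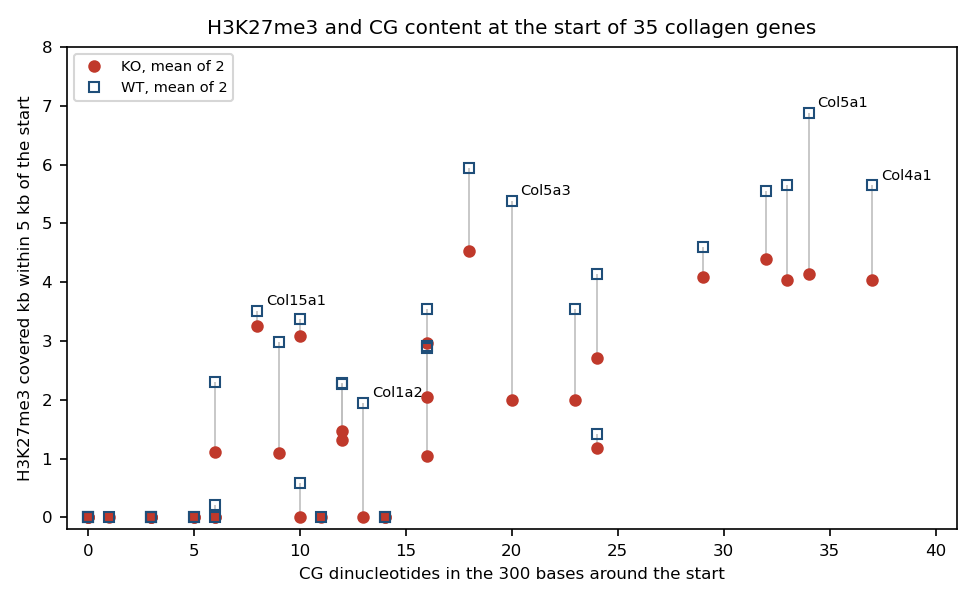
H3K27me3 at the start (covered kb within 5 kb of it, mean of 2 libraries) against the number of CG in the RefSeq promoter for 35 collagen genes, with KO as filled red circles, WT as open blue squares and a line joining the 2 values of a gene. Promoters with 16 or more CG all lie above 0 in WT, those with fewer than 8 lie mostly at 0, and the KO point is below the WT point of every gene that has the mark.

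H3K4me3 was sparse at collagen genes, and its covered bases overlapped between the genotypes. It covered 516 and 344 bases per gene in KO_399 and KO_401, against 371 and 337 in WT_407 and WT_409. KO_399 was the highest library, and the other KO library lay between the WT libraries. The means were 430 ± 121 in KO and 354 ± 24.1 in WT (SD, n = 2 each, exact permutation p = 0.667), a difference smaller than the spread between the KO mice. Without KO_399 the KO value was 344 and the WT mean 354, and the difference became -10.1. Genes with a peak numbered 18 and 15 in KO_399 and KO_401, against 14 and 13 in WT_407 and WT_409. This count was thus higher in each KO library than in either WT library (exact permutation p = 0.33, n = 2 each). The separation depended on short stretches such as the 196 bases of Col11a2 in KO_401. With at least 200 covered bases required, the count averaged 16 in KO and 13.5 in WT (exact permutation p = 0.667, n = 2 each). The genotypes were then no longer separate. Over all genes the count was 14363 and 13823 in KO_399 and KO_401, against 14018 and 13863 in WT_407 and WT_409. There the genotypes overlapped. With lists of equal covered length the collagen count differed by -0.5 (11 in KO, 11.5 in WT). All genes averaged 1809.5 ± 195 covered bases in KO and 1694.1 ± 18.9 in WT (SD, n = 2 each). In all, 18 of 44 collagen genes (40.9%) had H3K4me3 in any library and 12 (27.3%) in all 4, where 66.6% and 61.6% of all genes did.

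Markers of other cell types also differed between libraries. Of 11 stromal and osteoblast markers 10 had H3K4me3 in any library and 5 in all 4, with a sum of 14434 and 6980 covered bases in KO_399 and KO_401, against 7729 and 4321 in WT_407 and WT_409. Bglap, which encodes the osteoblast protein osteocalcin, was at 0 in all 4. The 6 endothelial markers had 6619 and 3008 bases in KO_399 and KO_401, against 3316 and 3224 in WT_407 and WT_409, with Emcn at 0 in all 4. KO_399 was thus the highest library for both lists as for the collagen genes. It was the highest for the 10 stem and progenitor genes too, with 51928 and 45937 bases in KO_399 and KO_401, against 42252 and 47558 in WT_407 and WT_409. Summed over each list, markers of maturing blood cells were highest in WT_409, although Cd79b and Klf1 were highest in KO_399. The 6 B lymphoid markers had 16881 and 10729 bases in KO_399 and KO_401, against 8845 and 23439 in WT_407 and WT_409. The 6 erythroid markers had 9627 and 7862 bases in KO_399 and KO_401, against 7736 and 12308 in WT_407 and WT_409, with Alas2 at 0 in all 4. KO_399 was also the highest of the 4 in listed H3K4me3 length, at 44.5 Mb, where the others held 36.7 to 38.6 Mb. The part of other cell types or of depth in the collagen values was not tested.

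The 10 genes with the most H3K4me3 were read by where their peaks lay. Col23a1 led, with 3334 and 2997 covered bases in KO_399 and KO_401, against 3209 and 3372 in WT_407 and WT_409. About 2 in 3 of these bases belonged to a strong peak at the start of Phykpl, an enzyme gene 729 bases from its upper end. Its own start had a peak of 1122 and 920 bases in KO_399 and KO_401, against 1071 and 1118 in WT_407 and WT_409. The peak of Col4a3 lay likewise at the start of Mff, at 1773 and 1745 bases in KO_399 and KO_401, against 1752 and 1746 in WT_407 and WT_409. These neighbours were alike in all 4 libraries.

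At their own starts, Col5a1 had the most H3K4me3, with 3672 and 2304 covered bases in KO_399 and KO_401, against 1573 and 2353 in WT_407 and WT_409. In KO_399 this was 1 peak, and in KO_401 and WT_409 it was 2 peaks about 2 kb apart. The shared start of Col4a1 and Col4a2 had a peak of 1897 and 1092 bases in KO_399 and KO_401, against 1467 in WT_407 and 2 short peaks of 513 and 184 in WT_409. Col4a2 had a further peak at its other end in 3 libraries, so its window held 2527 and 1679 bases in KO_399 and KO_401, against 1923 and 697 in WT_407 and WT_409. Neither the Col5a1 nor the Col4a1 values separated the genotypes. Col27a1 had 1229 and 924 bases in KO_399 and KO_401, against 911 and 1176 in WT_407 and WT_409. Col25a1 had 1116 and 812 bases in KO_399 and KO_401, against 876 and 708 in WT_407 and WT_409. A second H3K4me3 peak of Col25a1 lay deep in its body in all 4 libraries, 1041 and 827 bases wide in KO_399 and KO_401, against 819 and 1021 in WT_407 and WT_409.

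Covered bases of H3K4me3 were lower in each KO library than in either WT library at 3 of the 18 genes (16.7%, against 3.68% of all genes with the mark). These were Col19a1 and the pair Col4a5 and Col4a6, which share 1 peak, so the count rests on 2 peaks. Col19a1 had 1103 and 926 bases in KO_399 and KO_401, against 1208 and 1177 in WT_407 and WT_409. That shared peak lay over the start of Col4a5, with its summit 48 to 214 bases into that gene. It was 706 and 696 bases wide in KO_399 and KO_401, against 747 and 709 in WT_407 and WT_409, so that KO_399 and WT_409 differed by 3 bases. Among the 12 collagen genes with H3K4me3 in all 4 libraries, this pair alone had no H3K27me3 in any library.

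Covered bases were higher in each KO library than in either WT library at 2 of the 18 genes (11.1%, against 23.3% of all genes with the mark), and both were counted in both KO and neither WT library (0.487% of all genes with the mark). Col18a1 had 875 and 366 bases in KO_399 and KO_401 and none in WT_407 or WT_409. The summit lay 612 and 641 bases into the gene, at folds of 6.03 and 6.14 as the authors give them, close to the fold of 5 under which no peak is listed. Col11a2 had 550 and 196 bases in KO_399 and KO_401 and none in WT_407 or WT_409. Most of these belonged to the edge of a peak 4935 and 4220 bases wide whose summit lay 258 and 155 bases from the start of its neighbour Rxrb, a retinoid receptor gene. No collagen gene had H3K4me3 in both WT and neither KO library (0.172% of all genes with the mark).

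The other genes with H3K4me3 had little. Col1a1 had 1080 and 214 covered bases in KO_399 and KO_401, against 599 and 909 in WT_407 and WT_409. Col14a1 had 448 and 244 in KO_399 and KO_401, against 346 and 323 in WT_407 and WT_409. Col13a1 had 254 and 242 in KO_399 and KO_401, against 0 and 249 in WT_407 and WT_409. Each of these 3 genes had overlapping groups. Col1a2 had 223 and 0 in KO_399 and KO_401, against 673 and 0 in WT_407 and WT_409. Col12a1 had 711 and 0 in KO_399 and KO_401, against 295 and 0 in WT_407 and WT_409. Col8a2 had a peak of 486 bases in KO_399 alone. The remaining 26 genes had no H3K4me3 within their windows in any library, among them Col2a1, Col5a3 and Col15a1, which carried H3K27me3 in all 4.

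Both marks of the same mouse overlapped at 13 of the 44 genes in at least 1 mouse and at 8 in all 4 mice. These are 29.5% and 18.2% of the collagen genes, where 18.4% and 9.45% of all genes had such an overlap. The 8 were Col4a1, Col4a2, Col5a1, Col14a1, Col19a1, Col23a1, Col25a1 and Col27a1. The overlap averaged 317 and 179 bases per gene in KO_399 and KO_401, against 238 and 186 in WT_407 and WT_409. The means were 248 ± 97.5 in KO and 212 ± 37.1 in WT (SD, n = 2 each, exact permutation p = 1). Over all genes the overlap was 140 ± 5.29 in KO and 177 ± 3.48 in WT (SD, n = 2 each, exact permutation p = 0.33). Without KO_399 the collagen overlap was 179 in KO and 212 in WT. At Col5a1 it was 2739 and 1503 bases in KO_399 and KO_401, against 1573 and 2040 in WT_407 and WT_409. At Col27a1, Col19a1 and Col25a1 nearly all of the H3K4me3 lay under H3K27me3 in every library, for example 1071 of 1116 bases at Col25a1 in KO_399. Peaks of a population that overlap do not show that both marks sit on the same chromosome.

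Genes of collagen maturation were read beside the collagens from a list of 42 genes for the modifying enzymes, chaperones, propeptide proteases, crosslinking enzymes, receptors and collagenases. H3K27me3 averaged 1913.9 ± 564 bases per gene in KO and 2909.4 ± 251 in WT (SD, n = 2 each), at 28 genes in any library and 25 in all 4. It was lower in each KO library than in either WT library at 21 of the 28, near the background of 68.5% of all genes with the mark. It was higher at 0 and in WT only at 0, beside 0.0326% and 7.96% of all genes with the mark. Mmp9, a gelatinase of neutrophils and osteoclasts, had the largest difference, with 2930 and 6159 bases in KO_399 and KO_401, against 15762 and 8149 in WT_407 and WT_409. P4ha3, a prolyl hydroxylase subunit, had 4637 and 6333 bases in KO_399 and KO_401, against 8540 and 7653 in WT_407 and WT_409. P3h4, a partner of lysyl hydroxylation, had 3110 and 3561 bases in KO_399 and KO_401, against 5605 and 6214 in WT_407 and WT_409. Ddr1, a collagen receptor kinase, had 4528 and 5872 bases in KO_399 and KO_401, against 9043 and 6192 in WT_407 and WT_409. These 4 genes were named because they had the largest differences of the list. None overlapped between the genotypes, as was the case at 21 of the 28 genes. Of the 5 crosslinking enzymes, 4 carried the mark in all 4 libraries and were lower in both KO libraries. Loxl3 had none in any library.

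Most maturation genes carried H3K4me3. It was present at 37 of 42 in any library and at 29 in all 4, where 66.6% and 61.6% of all genes had it. Covered bases were higher in each KO library than in either WT library at 10 of the 37 and lower at 2, beside 23.3% and 3.68% of all genes with the mark. Colgalt1, the collagen galactosyltransferase used by most cells, had 6115 and 4613 bases in KO_399 and KO_401, against 3846 and 4981 in WT_407 and WT_409, so its groups overlapped. Mmp2, a gelatinase, had 5120 and 4866 bases in KO_399 and KO_401, against 3719 and 4070 in WT_407 and WT_409. Mmp14, its membrane-bound activator, had 4269 and 3644 in KO_399 and KO_401, against 3921 and 2170 in WT_407 and WT_409. Adamts14, a procollagen propeptidase, had 1738 and 1019 in KO_399 and KO_401, against 700 and 603 in WT_407 and WT_409. Mmp2 and Adamts14 were higher in each KO library than in either WT library, and Mmp14 was not. Ctsk, the collagenase of osteoclasts, was the single gene of the list with H3K4me3 in KO alone, at 256 and 199 bases in KO_399 and KO_401. That is 1 of 37, beside 0.487% of all genes with the mark, and both stretches were short.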

How the data were processed

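H3K27me3 and H3K4me3 were measured in 8 libraries, each with its own peak list. Input libraries were not analysed here. MACS2, Bowtie2, SAMtools, FastQC, deepTools and Trim Galore with build mm10 are named in the submitters' processing notes, without versions or settings. Per the labels, chromatin was fixed with 1% formaldehyde and reads were 75 bp. The deposited columns hold a score per peak, a fold (a ratio over background), and the −log10 of the p-value and q-value; these are the authors' values and only described or filtered peaks of 1 list. Each deposited fold was at least 5, and 24.8% to 78% of numbered peaks were kept, a filter given in no source used here.

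Covered bases within 5 kb of gene ends (RefSeq GRCm38.p6) were computed with Python 3.11.15, numpy 2.4.6, pandas 2.3.3 and scipy 1.17.1, and the steps were tested on simulated peaks. Where the deposited −log10 p-value allowed an exact Poisson match, summit background was recovered for 74.1% to 100% of summits per list. Means of libraries were tested by exact permutation, two-sided, and genes by whether both KO libraries lay on 1 side of both WT libraries, beside the same share of all genes; p-values cover only the spread between these libraries, and no read counts give an interval. Members and lists were chosen with earlier results of these data known. Values in every library are given for the 12 genes with the most H3K27me3 and the 10 with the most H3K4me3, genes in WT or KO only, the 8 largest differences, pairs sharing a start, and the 4 largest differences of maturation genes, and for the other marked genes where a class was described. Loxl3 was named after its values were seen.

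Neighbours share windows: 19 members had another gene's end within 5 kb, and the windows summed to 877105 bases, of which 843522 were distinct. The alternatives were other windows, a fold above 7.5, lists of equal number or length, at least 200 covered bases, and leaving out each library.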

Additional observations from a re-analysis of the deposited data

How the results depend on the processing

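Under 14 alternatives, 135 of 165 values kept their direction and, for counts, stayed within 1.5 times the reported one, 24 moved and 6 reversed. For the counts of genes lower, higher or in 1 genotype only, leaving out a library could not lower the value. The lower H3K27me3 coverage of KO kept its direction in all of them (-1343.1 to -710 bases per gene on leaving out 1 library), and was -126 with lists of equal covered length, where both marks differed by 0.966. Equal length gave +5 genes with H3K27me3 (17.5 in KO, 12.5 in WT), 9 genes lower, 1 higher, 0 in WT only and 1 in KO only. For H3K4me3 it gave -16.1 bases (306 in KO, 322 in WT), -0.5 genes with a peak, 5 lower, 1 higher and 1 in KO only. H3K27me3 in WT only was at 5 genes above a fold of 7.5 and at 0 with equal peak numbers. H3K4me3 was higher in both KO libraries at 5 genes within 10 kb, 4 over the whole gene, 1 at starts and 1 above a fold of 7.5. It was in KO only at 1 gene within 2 kb, within 10 kb, at starts, above 7.5 or with at least 200 bases. Both marks differed by -6.67 bases above a fold of 7.5 (134 in KO, 141 in WT). Shares of all genes were not computed under the alternatives, so the gene counts given for them have no background beside them. The causes were not tested.

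On leaving out 1 library, H3K4me3 ranged from -10.1 to 162 bases and both marks from -33 to 105, the lowest of each without KO_399. Counts of genes lower, higher or in 1 genotype only cannot fall when a library is left out, because each rule then asks for fewer libraries. The low end of their ranges was thus fixed in advance. The genes lower for H3K27me3 ranged from 22 to 28, higher from 0 to 3 and in WT only from 3 to 7 (7 without KO_401). For H3K4me3, those lower ranged from 3 to 7 (7 without KO_399), higher from 2 to 13 (13 without KO_401, 5 without WT_407 or WT_409) and in KO only from 2 to 3. Genes with a peak differed by -8 to -4 for H3K27me3 and by 1.5 to 4.5 for H3K4me3. Chosen after seeing the data, division by the mean of all genes gave differences of -0.0831 for H3K27me3, 0.0262 for H3K4me3 and 0.558 for both marks, and keeping 1 gene of each pair sharing a start gave -1024.9, 62.4 and 28.5 bases. No paired analysis was possible because KO and WT mice carry different numbers. A fold of 5 limits what the lists can show of weak peaks.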
